A study of Mus musculus with 16 samples.

Results

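The comparison described here is that of liver with a hepatic Tsc1 knockout with wild-type liver, both from C57BL/6J mice kept on a control diet, with a time of 10 days given in the labels. It takes the 4 knockout and the 4 wild-type libraries that carry the control-diet label, which are 8 of the 16 libraries of the study, and it covers every gene with a symbol in the read count table (48051, of which 14346 had enough reads to be tested). The other 8 libraries, the same genotypes under the Gao-binge alcohol regimen, were not compared here. They entered the choice of genes tested, the scaling of the libraries and the shared estimate of the spread. None of the 8 libraries described here had an alcohol treatment. The labels call the knockout hepatic and do not give the promoter or Cre that drives it, the exon removed, the age or sex of the mice, or whether each library is a separate animal, so p-values measure the spread between libraries, which may in part be technical.

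Tsc1 and Tsc2 form a complex that switches off the small GTPase Rheb and so restrains mTORC1, the kinase complex that couples amino acids, insulin and energy to growth of the cell. Amino acids recruit mTORC1 to the lysosome surface through the Rag GTPases, where folliculin also acts, and mTORC1 in turn keeps the factors TFEB and TFE3, which activate lysosomal and autophagy genes, in the cytosol. In the liver the pathway is known for its roles in protein synthesis, fat and glucose metabolism, ketone body production and hepatocyte growth.

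Total counts ran from 15.83 to 18.694 M per library. The first principal component of log2 expression over the 8 libraries held 49.1% of the variance and separated the genotypes. The second held 15.9% and put libraries 1 and 2 of both genotypes on one side and libraries 3 and 4 on the other. Libraries 3 lay farthest out. The third held 10.5% and set wild-type library 2 at one end and wild-type library 1 at the other. The tissue label was checked with 15 hepatocyte markers, whose summed level was 125284 to 143577 CPM (read counts scaled to library size) in wild type and 76960 to 83875 CPM in the knockout. Most of that difference was Alb, with a mean of 80562 CPM against 34438 CPM. Transcripts of the mitochondrial genome took 3.51 to 4.22% of counts in wild type and 4.83 to 5.8% in the knockout. Their part in the results below was not tested. Liver is a mixture of cells, so fewer cells of a type and less RNA per cell cannot be told apart in any value given here.

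Tsc1 (chromosome 2, 28641228 to 28691167, plus strand of GRCm38) was counted at 24.3, 27.6, 24.9 and 29.7 CPM in wild-type libraries 1 to 4 and at 23.4, 16.8, 16.2 and 17.7 CPM in knockout libraries 1 to 4. The groups did not overlap, but knockout library 1 lay just under the lowest wild-type library. The difference was -0.52 ± 0.13 log2 (SE, adjusted p = 0.0147; exact two-sided permutation p = 0.0286, the smallest possible with 4 against 4). The call was lost without knockout library 3 (adjusted p = 0.0531) or wild-type library 4 (0.0567) and with scaling by library totals alone (-0.40, 0.112). Counts also take in reads of exons that a deletion leaves and of other cells of the liver, so this is a partial check of the label.

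Loss of Tsc1 raised 1061 genes, 7.4% of the 14346 tested, and lowered 705, 4.91%, at an adjusted p under 0.05 in edgeR's quasi-likelihood test, which is the test behind every adjusted p below. The median of all tested genes was 0.01 log2. Lists of genes are described below by how many of their tested members rose or fell, to be read against these shares, and by their median log2 difference. Scaling by library totals alone moved the median of all genes by 0.119 log2 and gave 1289 rises and 251 falls, so that 83.7% instead of 60.1% of the calls were rises. Those are 8.99% and 1.75% of genes, or 10.7% in either direction, against 12.3% with TMM factors. DESeq2 called 12.9% of the genes it tested in either direction, voom 11.7% and voom with sample quality weights 25.1%. The last called 13.7% of genes higher and 1643 genes lower. With only the 8 control-diet libraries edgeR called 10.5% of 13675 genes higher and 1043 lower. Both fits also called more members in many of the lists below, and their counts are not given for each list. The 4 knockout libraries all lay above the 4 wild-type libraries in 12.3% of tested genes and all below in 10.2%. Under library totals small falls lost their call more easily than small rises. Of the 385 called members of the lists and rules used here, 219 kept their call in each of 8 fits that left out 1 of the libraries, and 166 lost it in at least 1. A gene said to have risen or fallen below is among the 219 unless a loss is stated beside it.

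**Figure D1:**
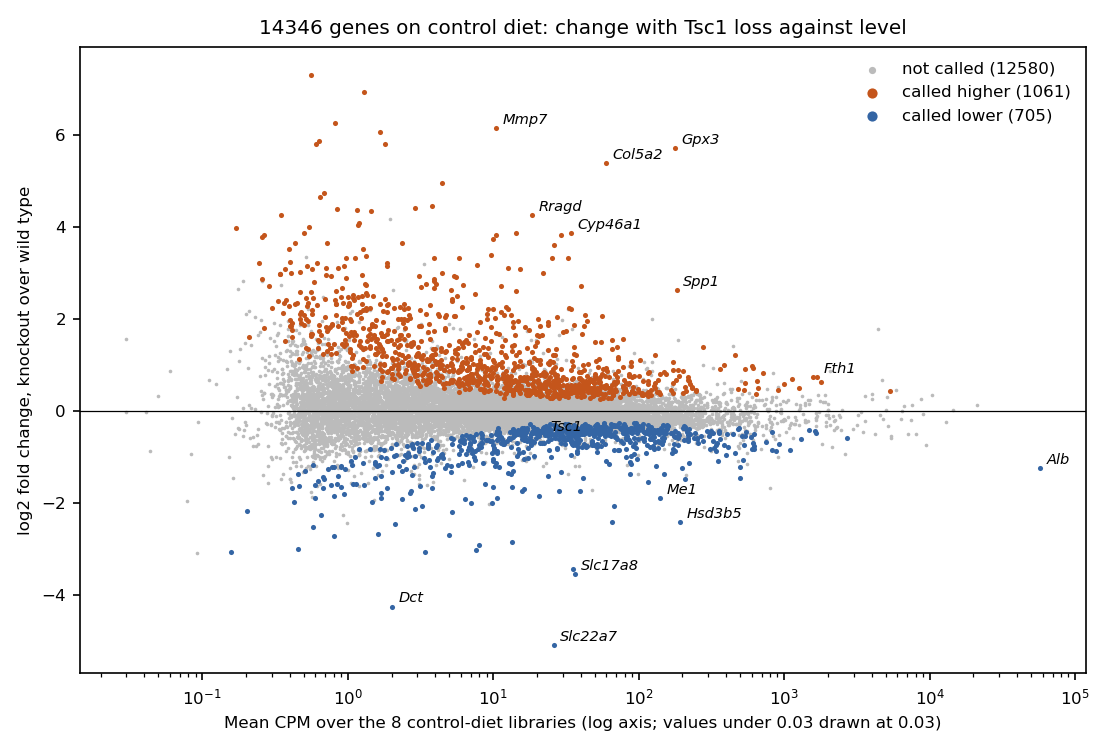
Difference between knockout and wild type (log2, vertical axis) against the mean level (CPM, log axis, means under 0.03 drawn at 0.03) for the 14346 genes tested, with each gene as a point, called rises in orange, called falls in blue and the rest in grey. Rises reach larger sizes than falls among genes of low level, and Alb is the fall at the far right.

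Rises were ranked among called genes with a mean of at least 2 CPM, no overlap of the groups and no clone or predicted symbol. The largest were in genes that were low in wild-type liver. The matrix metalloproteinase gene Mmp7 was counted at 0.167, 0.426, 0.307 and 0.232 CPM in wild-type libraries 1 to 4 and at 36.4, 11.1, 22.9 and 12.4 CPM in the knockout libraries. Gpx3, which encodes a secreted glutathione peroxidase, was at 12.8, 4.95, 5.04 and 3.77 CPM against 295, 197, 669.6 and 231 CPM. Col5a2, a chain of the fibrillar collagen type V, was at 2.5, 3.89, 2.4 and 2.21 CPM against 98, 72.3, 145 and 148 CPM. In each of these genes the groups were far apart, although knockout library 3 was above the other knockout libraries for Gpx3 and wild-type library 1 above the other wild-type ones. The differences were 6.15 ± 0.72 log2 for Mmp7 (SE, adjusted p = 0.000107), 5.71 ± 0.55 for Gpx3 (1.6e-05) and 5.39 ± 0.28 for Col5a2 (1.08e-08).

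Renbp, a sugar epimerase that also binds renin, was at 4.23, 5, 2.7 and 3.31 CPM in wild type and 60.4, 48.2, 60.9 and 48 CPM in the knockout, a 14.2-fold difference with little spread. Cyfip2, a subunit of the complex that drives actin branching, was at 1.11, 1.44, 1.35 and 1.57 CPM against 19.4, 17.1, 24.2 and 17 CPM. The lowest knockout library of either gene was many times the highest wild-type one. Cyp46a1, the cholesterol 24-hydroxylase best known from neurons, was at 7.12, 4.37, 3.26 and 2.79 CPM against 112, 55.3, 55.6 and 35.8 CPM, with knockout library 1 highest. Mmp27, Slc35f2, Epdr1 and Eda2r, a receptor of the tumour necrosis factor family, rose by 3.67 to 4.96 log2 from under 1 CPM in every wild-type library. The methyltransferase gene Setd7 rose by 2.01 ± 0.13 log2 and Ttc39a by 3.01 ± 0.24, and both are among the 10 called genes with the smallest p-values.

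Among abundant transcripts the iron storage gene Fth1 went from 1353, 1105, 1315 and 1235 CPM in wild type to 2077, 1932, 2268 and 2148 CPM in the knockout. The groups were well separated, and the difference was 0.75 ± 0.13 log2 (SE, adjusted p = 0.00136). Pigr, the receptor that carries immunoglobulin A across epithelia, and B2m, the light chain of MHC class I, rose by 0.74 and 0.63 log2. Selenop, which carries selenium in plasma, was called at 0.44 ± 0.13 log2, but the call was lost in each of the 8 fits that left out a library (0.40 to 0.46).

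Falls were ranked with the same limits as the rises. The largest fall was in the transporter gene Slc22a7, and Dct, Slc17a8 and Serpina7 came next. Slc22a7 (chromosome 17, 46432183 to 46438457, minus strand), an organic anion carrier of hepatocytes, was at 59.7, 51.2, 37.2 and 55.5 CPM in wild type and at 1.09, 2.78, 0.757 and 1.43 CPM in the knockout. Slc17a8, a vesicular glutamate transporter known from neurons, was at 60.9, 64.2, 55.1 and 87.7 CPM against 5.84, 7.56, 4.32 and 5.41 CPM. Serpina7, the thyroxine-binding globulin, was at 85.1, 53.7, 53.6 and 65.6 CPM against 5.9, 3.96, 4.54 and 9.61 CPM. Every knockout library of these genes lay far below the lowest wild-type library. The differences were -5.08 ± 0.37 log2 (SE, adjusted p = 9.91e-07), -3.53 ± 0.39 (5.83e-05) and -3.42 ± 0.57 (0.0017).

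Dct, a melanin synthesis enzyme, was at 4.06, 4.74, 3.75 and 2.79 CPM in wild type and at 0.172, 0.236, 0.27 and 0.106 CPM in the knockout. Nat8, an acetyltransferase, Slc22a28, the antisense transcript Hectd2os, Ttbk1 and the secreted factor Prok1 fell by 3.01, 2.91, 3.06, 2.44 and 2.13 log2. The strand used in counting is not given in the sources used here, so Hectd2os cannot be told apart from the gene on the other strand, and reads of Slc22a28 may be shared with near-identical Slc22a genes. Acot3, a thioesterase of peroxisomes, was at 36.2, 6.71, 38.6 and 13.9 CPM against 6.47, 2.72, 3.41 and 0.637 CPM. Its groups only just failed to overlap, and its call (-2.85 ± 0.74 log2) was lost without knockout library 2 (-2.77), 3 (-2.87) or 4 (-2.5) or wild-type library 1 (-2.57) or 3 (-2.52). Alb, the serum albumin gene, was at 86942, 77410, 78646 and 79249 CPM against 37228, 36173, 31435 and 32917 CPM, a fall of -1.23 ± 0.22 log2 (SE, adjusted p = 0.00175).

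**Figure D2:**
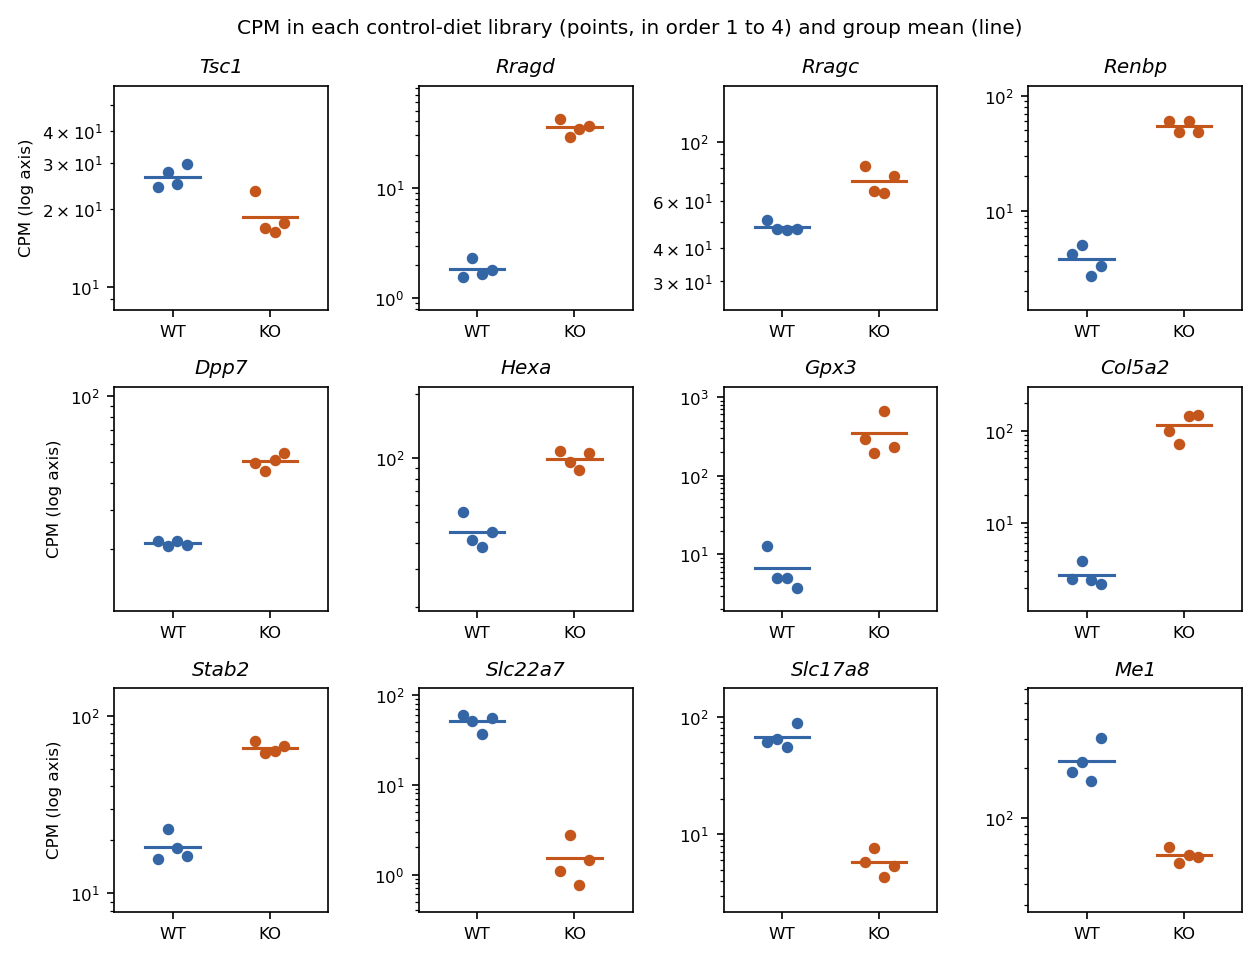
Level of 12 genes (CPM, log axis) in the 4 wild-type and the 4 knockout control libraries, with each library as a point (1 to 4 from left to right, wild type in blue and knockout in orange) and the group mean as a line. In Rragd, Rragc, Renbp, Dpp7, Hexa, Gpx3, Col5a2 and Stab2 all knockout points lie above all wild-type points, in Slc22a7, Slc17a8 and Me1 below them, and in Tsc1 the groups come closest.

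Among the components of the mTORC1 pathway itself, Ddit4, Ddit4l, Sesn3, Eif4ebp1 and Pdcd4 rose. Ddit4, a stress-induced inhibitor that acts through the Tsc complex, was at 3.67, 3.94, 4.36 and 5.05 CPM in wild type and 19.2, 20.1, 28.1 and 14.1 CPM in the knockout. Sesn3, of the sestrin family that holds back the amino acid branch, was at 23.7, 28.3, 29.8 and 34.5 CPM against 83.9, 84.2, 67.9 and 91.7 CPM. Every knockout library was well above every wild-type library for both genes. Ddit4 rose by 2.26 ± 0.30 log2 (SE, adjusted p = 0.000247) and Sesn3 by 1.49 ± 0.16 (1.99e-05). Ddit4l, a relative of Ddit4, rose by 1.81 ± 0.32, and Eif4ebp1 and Pdcd4, which restrain translation initiation downstream of mTORC1, rose by 0.66 ± 0.14 and 0.67 ± 0.13.

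Over the whole list of 26 tested genes of the kinase complex, the Tsc complex, effectors and inhibitors, 5 rose and 2 were called lower, with a median of 0.17 log2. The 2 were Tsc1 and Rheb. Rheb was at -0.27 ± 0.08 log2 (adjusted p = 0.0393), and its call was lost in each fit that left out a library (-0.29 to -0.23). Without knockout library 3 or wild-type library 4 the list had 0 called lower, and 1 in each of the other 6 such fits. The kinase gene Mtor was at -0.21 ± 0.10 log2 (adjusted p = 0.193) and Tsc2 at 0.28 ± 0.10 (0.0896), neither called. Deptor, which binds and inhibits the kinase and was the most abundant uncalled gene of the list, was at 0.19 ± 0.13 (adjusted p = 0.393).

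At the lysosome surface, the Rag GTPase genes Rragd and Rragc rose, while Rraga (-0.07 ± 0.11, adjusted p = 0.728) and the genes of TFEB and its relatives were not called. Rragd (chromosome 4, 32983037 to 33022180, plus strand of GRCm38), which encodes a Rag subunit that tells mTORC1 of amino acids, was at 1.56, 2.34, 1.66 and 1.8 CPM in wild type and at 41.8, 28.8, 34.4 and 36.6 CPM in the knockout, with no overlap and a difference of 4.26 ± 0.21 log2 (SE, adjusted p = 1.67e-09). Rragc, its close relative, was at 50.8, 47.1, 46.8 and 46.9 CPM against 80.8, 65.4, 64 and 74.2 CPM. It too had separate groups, at the much smaller difference of 0.57 ± 0.10 log2 (adjusted p = 0.00117). Flcn, the folliculin gene, was at 41, 35.1, 33.1 and 25.9 CPM against 55.4, 45.2, 56.9 and 56.4 CPM and rose by 0.66 ± 0.16 log2. The lysosomal amino acid sensor Slc38a9 was called at 0.37 ± 0.09 log2 and lost the call without knockout library 4.

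Of 27 tested Rag, Ragulator, GATOR, folliculin and MiT/TFE genes those 4 were higher and 0 lower, with a median of 0.03 log2. The transcription factor genes showed no called difference. Tfeb was at -0.09 ± 0.18 log2 (adjusted p = 0.789), Tfe3 at 0.00 ± 0.16 and Mitf at 0.08 ± 0.18. Their transcript level says nothing of where in the cell the proteins are.

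Lysosomal genes were higher in number. Of 49 hydrolases and their activators 26 were called higher and 0 lower, with a median of 0.44 log2, and leaving out single libraries gave 21 to 25. Dpp7, a dipeptidyl peptidase that is not on that list, was at 21.6, 20.7, 21.7 and 20.9 CPM in wild type and 49.5, 45.3, 50.8 and 54.8 CPM in the knockout. Hexa, which encodes an enzyme that breaks down gangliosides in lysosomes, was at 55.5, 41.2, 38 and 44.9 CPM against 108, 95.4, 87.9 and 106 CPM. For both genes the groups were far apart relative to their spread. They rose by 1.24 ± 0.08 and 1.14 ± 0.12 log2 (SE, adjusted p = 3.31e-08 and 1.46e-05). Some genes taken by the naming rule and described here have exons that overlap a gene on the other strand. They are Mmp7, Hectd2os, Acot3, Ttbk1, Prok1, Setd7, Selenop, Ctsl, Deptor, Rragc, Ctsz, Gabarapl1 and Sqstm1. The others are Hps4, Rpl22l1, Rps25, Rack1, Snhg6, Umps, Me1, Ucp2, Sult1a1, Bhlhe41, Tuba8, Stab2 and Fcgr2b. Exons of Acot3, Snhg11, Ctsl, Rack1, Fdps, Bax and Spp1 overlap a gene on their own strand.

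The cathepsins differed among themselves. Ctsz was at 306, 251, 233 and 244 CPM in wild type and 512, 504, 514 and 533 CPM in the knockout, and rose by 1.00 ± 0.10 log2. Ctsb was at 546, 485, 485 and 524 CPM against 812, 763, 764 and 861 CPM, and rose by 0.65 ± 0.12. Ctsl was called at 0.83 ± 0.21 log2 but lost the call without knockout library 3 (0.75) or 4 (0.77). Ctsd was at 0.12 ± 0.11 (adjusted p = 0.52) and Ctsh, the uncalled hydrolase with the highest level, went from a mean of 271 to 237 CPM. Sulfatase and sialidase genes were among the rises, with Galns at 1.17 ± 0.18 and Neu1 at 0.95 ± 0.13 log2.

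Of 23 lysosomal membrane genes 11 were higher and 1 lower, with a median of 0.40 log2. Mcoln1, the calcium release channel mucolipin-1, was at 47.4, 45.7, 41.7 and 39.9 CPM in wild type and 70.4, 70.9, 83.3 and 72.8 CPM in the knockout, and rose by 0.77 ± 0.12 log2. Lamp1, a main membrane glycoprotein, was at 550, 550, 543 and 537 CPM against 767, 794, 723 and 794 CPM, and rose by 0.50 ± 0.10. Its partner Lamp2 was at 0.14 ± 0.11 log2 (adjusted p = 0.44). The exception was Mfsd8, whose loss in humans causes a lysosomal storage disease of the brain, at 14.7, 13.6, 16.6 and 13.5 CPM against 7.56, 10.2, 9.95 and 8.86 CPM. Its groups did not overlap and it fell by 0.68 log2 (SE 0.14).

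Of 19 subunits of the V-ATPase, the proton pump that acidifies lysosomes, 10 were called higher and 0 lower, with a median of 0.35 log2. Without knockout library 1 the count was 5. Atp6v1b2 was at 53.5, 50.1, 50.9 and 52.9 CPM in wild type and 71.3, 71.5, 74.9 and 75.7 CPM in the knockout, a rise of 0.50 ± 0.08 log2 with very little spread in either group. Atp6v0e rose by 0.46 ± 0.09, while Atp6v0d1 was at 0.03 ± 0.09. In the list of melanosome and lysosome-related organelle genes 2 of 16 were higher and 1 lower, the last being Dct, and Hps4 rose by 1.28 ± 0.16.

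TFEB and its relatives bind the letters CACGTG, which read the same on both strands. Promoters of 4 genes described above are shown here, 250 bases before to 50 after a RefSeq start on GRCm38.p6, with CACGTG in capitals. Of these genes only Mcoln1 is in the 3 lysosomal lists counted below.
Mcoln1, plus strand, chr8:3500269-3500568: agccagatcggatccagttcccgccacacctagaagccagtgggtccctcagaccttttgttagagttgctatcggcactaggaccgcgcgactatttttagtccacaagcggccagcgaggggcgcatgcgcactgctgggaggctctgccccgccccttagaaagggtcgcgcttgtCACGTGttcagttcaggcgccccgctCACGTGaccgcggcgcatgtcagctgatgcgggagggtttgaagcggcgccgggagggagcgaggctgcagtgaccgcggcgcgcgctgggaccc
Rragc, plus strand, chr4:123917183-123917482: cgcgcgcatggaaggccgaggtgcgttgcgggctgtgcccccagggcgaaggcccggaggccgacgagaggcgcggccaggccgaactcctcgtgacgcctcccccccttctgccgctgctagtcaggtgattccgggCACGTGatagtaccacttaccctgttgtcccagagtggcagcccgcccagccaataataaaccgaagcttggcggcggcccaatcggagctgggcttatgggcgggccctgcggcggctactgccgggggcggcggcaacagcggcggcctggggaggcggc
Dpp7, minus strand and printed as transcribed, chr2:25356283-25356582: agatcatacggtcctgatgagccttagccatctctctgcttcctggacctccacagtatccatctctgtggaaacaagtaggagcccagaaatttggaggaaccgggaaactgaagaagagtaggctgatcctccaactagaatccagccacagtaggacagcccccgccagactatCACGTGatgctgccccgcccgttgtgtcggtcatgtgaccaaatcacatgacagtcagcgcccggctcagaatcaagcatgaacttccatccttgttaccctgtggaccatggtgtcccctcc
Rragd, plus strand, chr4:32982748-32983047: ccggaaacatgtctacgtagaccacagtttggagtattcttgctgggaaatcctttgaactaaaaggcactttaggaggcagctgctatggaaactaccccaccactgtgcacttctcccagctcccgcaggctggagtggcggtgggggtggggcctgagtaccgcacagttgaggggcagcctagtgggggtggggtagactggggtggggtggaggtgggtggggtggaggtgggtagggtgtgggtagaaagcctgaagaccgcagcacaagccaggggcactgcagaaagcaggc
The window of Mcoln1 holds 2 matches, those of Rragc and Dpp7 hold 1 each, and that of Rragd, the gene with the largest rise of the 4, holds 0. Among 13325 promoters of tested genes 9.69% held the motif. The share was 12.2% for genes called higher and 11.9% for genes called lower. In the 3 lysosomal lists it was 23.9% of 46 promoters for members called higher and 23.8% of 42 promoters for the other members. For lysosomal genes the motif was thus more frequent than over all promoters, and equally frequent whether or not the gene was called higher. Over all genes not called the share was 9.34%. The longer form TCACGTG or CACGTGA was in 8.21% of promoters of genes called higher, 6.42% of those called lower and 5.51% of those not called. In the lysosomal lists it was in 21.7% for members called higher and 21.4% for the others. Only 10398 of the tested genes had a promoter here, and differences between these shares were not tested. A match is a run of letters and not a measured binding site.

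**Figure D3:**
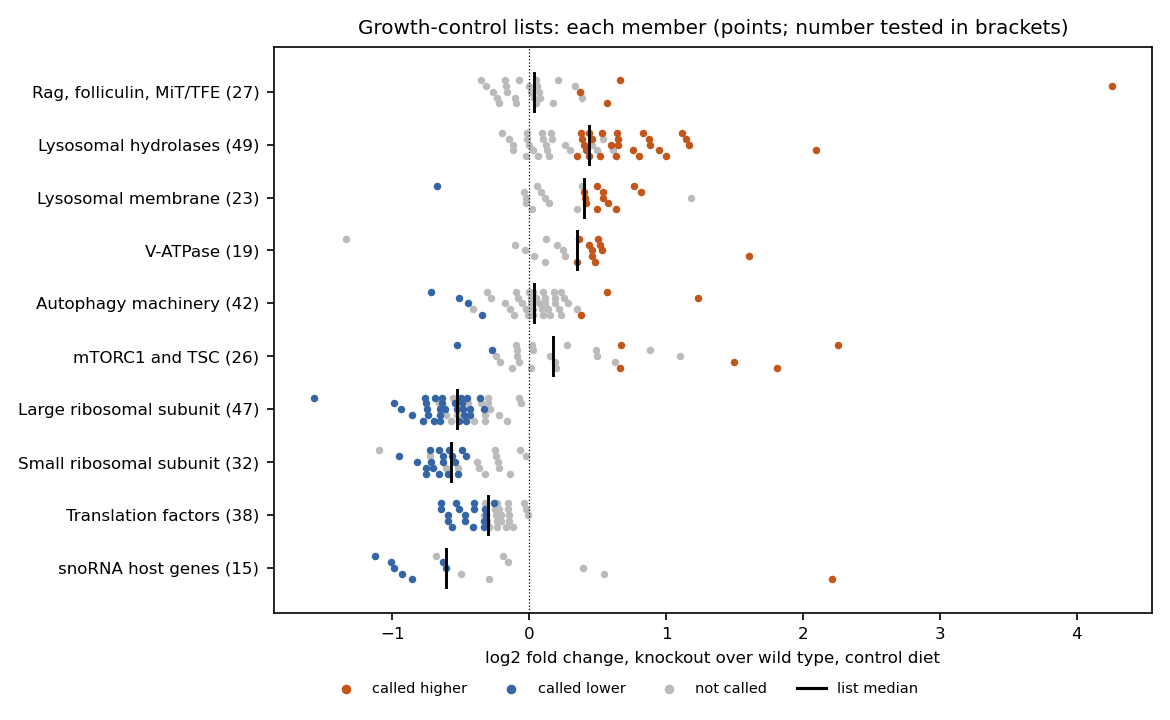
Difference between knockout and wild type (log2) of each tested member of the lists on mTORC1, the lysosome, autophagy, the ribosome, translation factors and small nucleolar RNA (snoRNA) host genes, with each gene as a point, called rises in orange, called falls in blue, uncalled genes in grey and the list median as a black bar. The lysosomal hydrolase list has its median at 0.44 and the ribosomal protein lists have theirs at -0.52 and -0.57 (-0.40 and -0.45 when scaled by library totals alone).

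Autophagy genes did not follow the lysosomal ones. Of 42 tested 3 were called higher and 4 lower, with a median of 0.04 log2. Gabarapl1, one of the ubiquitin-like proteins that coat autophagosomes, was at 273, 245, 286 and 292 CPM in wild type and 668, 661, 584 and 660.4 CPM in the knockout, and rose by 1.23 ± 0.16 log2 (SE, adjusted p = 9.68e-05). Its relative Gabarapl2 was at -0.45 ± 0.11 log2, called in each fit that left out a library and not called when scaled by library totals alone (-0.33, adjusted p = 0.143). Atg101, of the complex that starts autophagy, was at 45.7, 30.2, 39.5 and 38.8 CPM against 20.3, 26.6, 21.3 and 25.7 CPM, and fell by 0.71 log2 (SE 0.15). The cargo receptor Sqstm1 was at 0.23 ± 0.22 (adjusted p = 0.55). The remaining calls were unstable. Atg7 (0.38) was kept only without wild-type library 4 and Wipi1 (0.57) only without wild-type library 2. Atg12 (-0.34) was lost without wild-type library 4 or knockout library 1, 3 or 4, and Bnip3 (-0.51) without wild-type library 1 or 3 or knockout library 1, 2 or 4.

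Transcripts of the cytosolic ribosome were lower as a body. Of 47 large-subunit genes 30 were called lower and 0 higher, with a median of -0.52 log2, and of 32 small-subunit genes 18 were lower and 0 higher, with a median of -0.57. Each of the 47 and each of the 32 had a negative difference. When scaled by library totals alone the counts were 11 and 9 and the medians -0.40 and -0.45, and without knockout library 3 or 4 the large-subunit count was 19 each time, and 18 without wild-type library 1. Rps25 was at 40.3, 33.4, 34.5 and 31 CPM in wild type and 20, 19.4, 19 and 20.4 CPM in the knockout, and fell by 0.82 log2 (SE 0.10, adjusted p = 5.32e-05). The groups were well apart, and the knockout libraries lay within a very narrow range.

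Rpl22l1, a paralog of a ribosomal protein, was at 15.7, 17.4, 10.4 and 9.52 CPM in wild type and 4.12, 4.26, 3.73 and 5.68 CPM in the knockout, a fall of 1.57 log2 that was the largest of the list. Rack1, a scaffold on the small subunit, was at 396, 338, 321 and 301 CPM against 220.3, 223, 221 and 204 CPM, and fell by 0.64 log2. Rpl41 was at -0.06 ± 0.15. Ribosomal protein genes have many processed pseudogenes, and how shared reads were counted is not given in the sources used here. Gapdh, another gene with many such copies, was counted at only 4.58 to 13.8 CPM in wild type.

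Of 38 translation factors 17 were called lower and 0 higher, with a median of -0.30 log2. The count was 10 without knockout library 3 or 4 or wild-type library 1, and 3 when scaled by library totals alone. Eef2, the elongation factor that moves the ribosome along, was at 1713, 1479, 1569 and 1526 CPM in wild type and 1100, 1077, 966 and 1023 CPM in the knockout, and fell by 0.59 log2 (SE 0.10). Of 15 small nucleolar RNA host genes 7 were lower, among them Snhg6 (-1.12 ± 0.21), and 1 was higher. The exception, Snhg11, was at 15.5, 11.8, 9.46 and 11.8 CPM against 57.8, 52.6, 64.5 and 50.6 CPM, a rise of 2.21 ± 0.16 log2. Gas5, a growth-arrest transcript of this class, was at -0.61 ± 0.13 and lost its call when scaled by library totals alone (-0.49, adjusted p = 0.075).

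Nuclear genes of oxidative phosphorylation leaned the same way, with 10 of 67 called lower and 0 higher and a median of -0.20 log2. That count ran from 2 to 13 over the fits that left out a library and was 2 when scaled by library totals alone. It was 13 in the fit of only the 8 control-diet libraries and 26 by voom with sample quality weights. Of the 67 genes 63 had a negative difference, and the median was -0.08 when scaled by library totals alone. Ndufa8, of complex I, was at 131, 97.9, 115 and 118 CPM in wild type and 68.4, 68.9, 74.6 and 75.4 CPM in the knockout and fell by 0.69 log2 (SE 0.13). Of 11 transcripts encoded in mitochondria 0 were called in either direction by edgeR, DESeq2 or voom and 1 by voom with sample quality weights, 0 had an unadjusted p under 0.05 in edgeR, and the median was 0.26. With edgeR 2 were called higher when scaled by library totals alone and 3 in the fit of only the 8 control-diet libraries.

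Genes of fatty acid oxidation and ketone body formation, most of them targets of the nuclear receptor PPARA, formed the metabolic list with the most falls. Of 44 tested 17 were lower and 1 higher, with a median of -0.41 log2. The count of falls was 9 without knockout library 3 or 4, or wild-type library 1 or 4, and 9 when scaled by library totals alone. Acaa2, the thiolase of mitochondrial beta-oxidation, was at 1312, 999.97, 1117 and 1138 CPM in wild type and 685, 814, 623 and 677 CPM in the knockout. Every knockout library lay below the lowest wild-type library. Of the beta-oxidation enzymes Acaa2, Decr1, Eci2 and Acadvl fell by 0.71, 0.59, 0.65 and 0.47 log2. The receptor gene Ppara (-0.22 ± 0.20) and the mitochondrial import enzyme Cpt1a (-0.03 ± 0.13) were not called.

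The single rise in that list was Ucp2, a carrier of the inner mitochondrial membrane. It was at 23, 20.1, 22.5 and 19.7 CPM in wild type and 78, 76.2, 109 and 95.7 CPM in the knockout, with no overlap and a difference of 2.07 ± 0.19 log2 (SE, adjusted p = 5.1e-06).

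Fat synthesis genes were called in both directions. Of 25 genes of de novo lipogenesis 6 were called lower and 2 higher, with a median of -0.10 log2 (of the other sign, 0.02, when scaled by library totals alone). The falls numbered 3 or fewer without knockout library 1, 2 or 3 or wild-type library 1, 2 or 4. The rises numbered 0 without knockout library 1 or 4 or wild-type library 1, 2 or 3, and 1 without knockout library 3 or wild-type library 4. Me1, the malic enzyme that supplies reducing power, was at 191, 218, 168 and 306 CPM in wild type and 67.3, 53.8, 60 and 58.5 CPM in the knockout, and fell by 1.88 log2 (SE 0.25, adjusted p = 0.000169). The groups were widely separated. Fasn was at 861, 499, 1092 and 2357 CPM against 481, 311, 714 and 926 CPM, so the groups overlapped and the difference of -0.98 ± 0.54 was not called (adjusted p = 0.269). The lipogenic regulators Srebf1 (-0.56 ± 0.31) and Mlxipl (0.04 ± 0.23) were not called either.

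Of 37 genes of triglyceride synthesis and lipid droplets 5 were called lower and 3 higher. Agpat2, an acyltransferase of triglyceride synthesis, was at 222, 189, 221 and 255 CPM in wild type and 107, 137, 107 and 125 CPM in the knockout, and fell by 0.90 log2 (SE 0.20). Fitm1, which helps to form lipid droplets, fell by 1.83 log2 (SE 0.40). Plin3, a coat protein of droplets, was at 60.4, 47.4, 58.5 and 61.3 CPM against 110, 95, 141 and 135 CPM, and rose by 1.08 ± 0.13. Hsd17b13, a droplet enzyme of hepatocytes, rose by 0.61 ± 0.13. Without knockout library 3 or 4 or wild-type library 1 or 4 the falls of this list numbered 2, as they did when scaled by library totals alone. Of 30 genes of cholesterol synthesis only Fdps was called (1.5 ± 0.38), and the call was lost without knockout library 4 or wild-type library 1.

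In carbohydrate metabolism few genes passed. Of 42 genes of glycolysis, glucose uptake and HIF1A targets 3 were higher and 3 lower, and P4ha2, a prolyl hydroxylase of collagen, rose by 1.41 ± 0.14 log2. The falls numbered 1 without wild-type library 2 and 0 without any 1 of the other 7 libraries. Of 28 genes of gluconeogenesis and glycogen 3 were lower, and none of them was called in 7 of the 8 fits that left out a library. Pck1 was at -0.18 ± 0.33 and G6pc at -0.42 ± 0.63. In the list of 39 genes of the pentose phosphate pathway and of nucleotide and one-carbon synthesis 2 were called higher and 4 lower. G6pdx, the entry enzyme of the pathway, was at 4.45, 6.39, 3.56 and 4.58 CPM in wild type and 10.2, 7.03, 9.35 and 9.29 CPM in the knockout, and rose by 0.92 ± 0.20. Prps2, which makes the ribose donor for nucleotides, rose by 1.12 ± 0.14, while Umps, of pyrimidine synthesis, fell by 0.71 log2 (SE 0.15).

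Amino acid handling changed at a few points. Slc7a5, the light chain of a carrier for large neutral amino acids, was at 2.34, 3.73, 3.87 and 3.31 CPM in wild type and 7.84, 8.81, 11.7 and 10.4 CPM in the knockout, and rose by 1.55 ± 0.35 log2 (SE, adjusted p = 0.00839). Slc16a10, a carrier of aromatic amino acids, rose by 0.67 ± 0.12. Of 26 tested transporters 4 were higher and 1 lower, with 2 higher without wild-type library 3 or 4. Glud1, which releases ammonia from glutamate, was at 1049, 975, 1086 and 1163 CPM against 522, 650, 550.3 and 652 CPM, and fell by 0.85 log2 (SE 0.12). Of 62 genes of the urea cycle and amino acid breakdown 5 were called lower and 0 higher. The falls numbered 1 to 5 over the fits that left out a library. With only the 8 control-diet libraries 10 were lower and 2 higher, and by voom with sample quality weights 14 and 2. Cps1, the entry enzyme of the urea cycle, was at -0.07 ± 0.17.

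In the list of the stress response that ATF4 directs, single genes were called. Nupr1, a stress-induced nuclear protein, was at 0.89, 1.6, 0.553 and 1.1 CPM in wild type and 14.4, 7.33, 7.08 and 13.8 CPM in the knockout, and rose by 3.34 ± 0.53 log2 (SE, adjusted p = 0.00112). Asns, asparagine synthetase, was at 5.73, 7.77, 1.97 and 4.53 CPM against 16.9, 35.1, 14.5 and 19.8 CPM. Its groups did not overlap, but the call (2.1 ± 0.56, adjusted p = 0.027) was lost without knockout library 2 (1.76) or 4 (2.14) or wild-type library 1 (2.17), 3 (1.84) or 4 (2.05). Of 27 genes on the list these 2 were higher and 0 lower, which is near the 7.4% of all tested genes called higher. Atf4 itself was at -0.17 ± 0.12 and Ddit3 at 0.10 ± 0.36. ATF4 with its partners binds TGATGNAA, which 2.46% of all promoters and 10 of 27 promoters of this list held on either strand. The list was chosen as regulators and targets of this response, so its share is not a result of these data. Asns and Nupr1 are among the 10 genes with a match, and the others with a match were not called. The motif is in capitals in the Asns promoter of the same build, which shows where it lies.
Asns, minus strand and printed as transcribed, chr6:7693160-7693459: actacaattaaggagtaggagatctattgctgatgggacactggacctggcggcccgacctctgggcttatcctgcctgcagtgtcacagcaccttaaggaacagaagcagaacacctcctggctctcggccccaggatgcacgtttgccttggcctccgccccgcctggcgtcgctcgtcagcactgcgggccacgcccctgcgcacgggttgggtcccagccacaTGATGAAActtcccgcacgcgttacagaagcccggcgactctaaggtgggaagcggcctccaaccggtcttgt
Gdf15, a hormone of cell stress, was at 4.12, 5.43, 2.15 and 3.83 CPM in wild type and 20.3, 12.9, 98.2 and 61 CPM in the knockout. It rose by 3.62 ± 0.67 log2 (adjusted p = 0.00312), with a wide spread among the knockout libraries, whereas Fgf21, another liver stress hormone, was at 0.20 ± 0.69 log2.

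**Figure D4:**
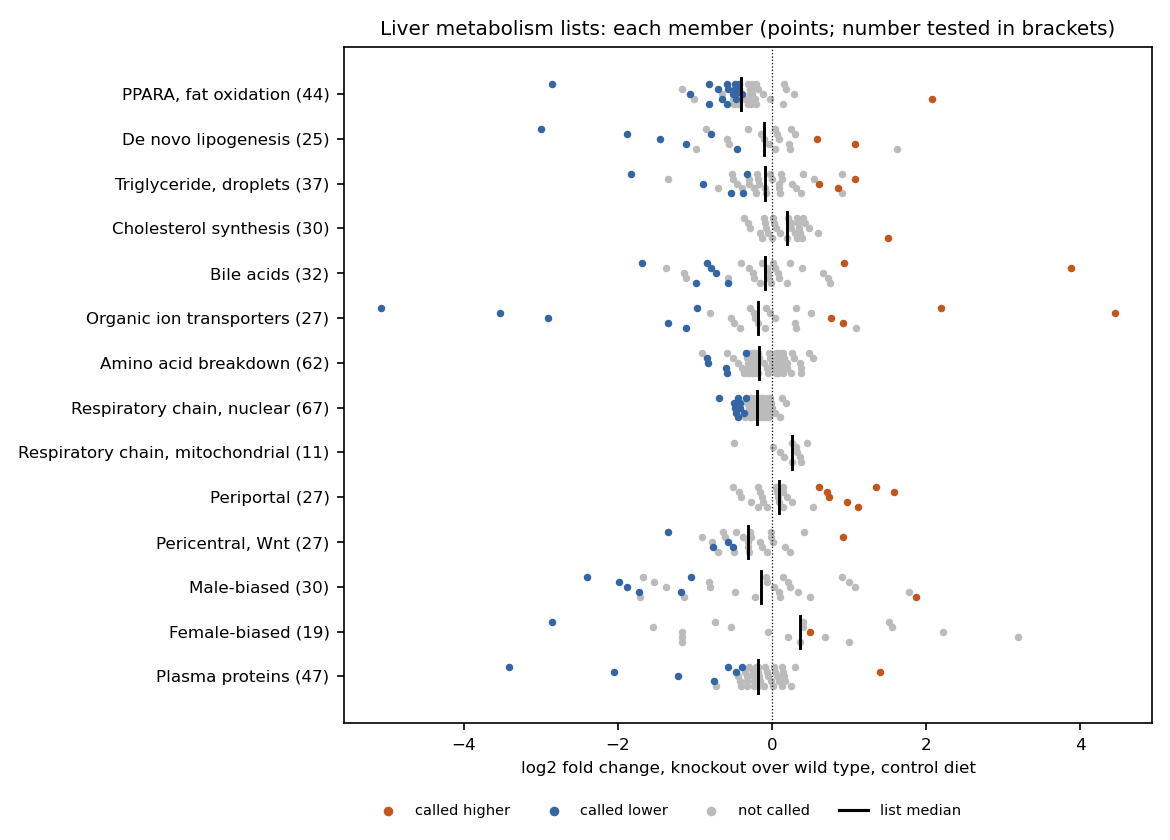
Difference between knockout and wild type (log2) of each tested member of the metabolic lists, with each gene as a point, called rises in orange, called falls in blue, uncalled genes in grey and the list median as a black bar. The list of PPARA targets, fatty acid oxidation and ketogenesis has its median at -0.41 (-0.29 when scaled by library totals alone), and the largest single fall is Slc22a7 among the organic ion transporters.

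The transporters of organic ions were reordered, with 4 of 27 higher and 6 lower, counts that every fit that left out a library repeated. Beside Slc22a7, the cation carrier Slc22a3 was at 5.23, 3.73, 6.21 and 6.91 CPM in wild type and 2.23, 2.72, 1.51 and 2.18 CPM in the knockout, and fell by 1.35 log2 (SE 0.24). The monocarboxylate carriers Slc16a11 and Slc16a13 fell by 1.12 and 0.97 log2, while Slc16a7 rose by 0.76 ± 0.18. Of the dicarboxylate and citrate carriers Slc13a3 rose by 0.92 ± 0.16 and Slc13a2 by 2.18 ± 0.49, while Slc13a5 was at 1.08 ± 0.73 and was not called. Slc13a3 was at 15.3, 14.2, 23.2 and 18.3 CPM against 26.6, 33.4, 34.1 and 39.6 CPM, so its groups did not overlap.

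In bile acid and sterol handling, Slc10a2, the bile acid carrier of the apical membrane, was at 15.4, 21, 26.8 and 36 CPM in wild type and 8.25, 5.5, 7.19 and 9.66 CPM in the knockout, and fell by 1.69 log2 (SE 0.38). Abcg8, which exports sterols into bile, fell by 0.99 log2 (SE 0.23). Of 32 genes on the list 6 were lower and 2 higher, with 3 lower without knockout library 3 or 4 or wild-type library 1. Cyp7a1, the rate-limiting enzyme of bile acid synthesis, was at 0.24 ± 0.65 (adjusted p = 0.861), with libraries of both genotypes spread over the same range.

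Of 47 P450 and drug receptor genes 6 were called lower and 2 higher, with a median of -0.28 log2. Nr1i2, the drug receptor PXR, was at 105, 87.8, 72.6 and 83.3 CPM in wild type and 54.8, 52.4, 41.1 and 46.4 CPM in the knockout, and fell by 0.84 log2 (SE 0.15). Por, which passes electrons to all microsomal P450 enzymes, fell by 0.77 log2 (SE 0.15). The falls numbered 3 without knockout library 3 or 4 or wild-type library 3. They numbered 14 in the fit of only the 8 control-diet libraries and 12 by voom with sample quality weights. The rises numbered 0 without wild-type library 4, and 1 without knockout library 2, 3 or 4 or wild-type library 2. Among 50 conjugation enzymes 6 were higher and 4 lower. Sult1a1, a sulfotransferase, was at 295, 178, 333 and 305 CPM against 128, 98.5, 117 and 127 CPM, and fell by 1.24 log2 (SE 0.20). The rises numbered 3 without knockout library 1, 2 or 4 or wild-type library 3 or 4. Of 38 NRF2 targets and antioxidant enzymes 2 were higher, Gpx3 among them, and 3 lower. Sod1, the cytosolic superoxide dismutase, fell by 0.70 log2 (SE 0.14), Cat was at 0.04 log2, and the NRF2 target Nqo1 was at 0.25 ± 0.26.

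Secreted hepatocyte proteins were lower at some genes and higher at others. Of 47 plasma protein genes 7 were called lower and 1 higher, with a median of -0.18 log2 and 4 lower without any 1 of the knockout libraries 1, 3 and 4 or the wild-type libraries 1, 3 and 4. The rise was lost without knockout library 4 or wild-type library 2, 3 or 4, and there were 2 rises without wild-type library 1. Ttr (0.12 ± 0.17) and Apoa1 (-0.23 ± 0.16), which like Alb are among the most abundant transcripts of hepatocytes, were not called. Of 40 complement and coagulation genes 6 were lower and 3 higher, and Mbl2, a lectin that starts complement, was at 448, 326, 396 and 505 CPM in wild type and 782, 733, 792 and 916 CPM in the knockout. It rose by 0.94 ± 0.15 log2. Without knockout library 1 the falls of this list numbered 3. Serpina12, the hepatokine vaspin, fell by 2.05 log2 (SE 0.44). The asialoglycoprotein receptor gene Asgr1 was at 816, 602, 603 and 628 CPM against 399, 442, 372 and 388 CPM, and fell by 0.73 log2 (SE 0.14). Of 15 hepatocyte markers 3 were called lower and 0 higher, with a median of -0.23 log2.

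Zonation genes, which mark hepatocytes by their place along the lobule, moved in part. Of 27 periportal genes 7 were higher and 0 lower, with a median of 0.08 log2. Cdh1, E-cadherin, was at 30.3, 44.3, 37.7 and 44.4 CPM in wild type and 103, 97.3, 124 and 144 CPM in the knockout. It rose by 1.58 ± 0.22 log2 (SE, adjusted p = 0.000237). Which cells of the liver its reads came from was not tested. Of 27 pericentral and Wnt target genes 4 were lower and 1 higher, with a median of -0.31 log2. Avpr1a, a vasopressin receptor, fell by 1.36 log2 (SE 0.28), while Glul (0.17 ± 0.29), Axin2 (-0.28) and Lgr5 (-0.61), which Wnt signals sustain near the central vein, were not called. The pericentral falls numbered 2 without knockout library 1 or 4 or wild-type library 1 and 1 without knockout library 3 or wild-type library 4. Of 30 male-biased liver genes 6 were called lower and 1 higher, and 3 were lower without knockout library 1, 3 or 4 or wild-type library 3. The rise was lost in each fit that left out a library other than knockout library 3. Hsd3b5, a male-biased steroid enzyme, was at 377, 354, 257 and 309 CPM against 63.6, 106, 27.1 and 49.3 CPM, and fell by 2.40 log2 (SE 0.50). Of 19 female-biased genes 1 was called higher and 1 lower, with a median of 0.36 log2. The higher one, Fmo4, kept its call only without knockout library 2, and the lower one was Acot3.

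A few collagen and matrix genes were called, in both directions. Of 24 collagen chains Col5a2 alone rose and 3 were called lower, against 4 higher and 3 lower by voom with sample quality weights and 5 lower by DESeq2. Col5a3, another chain of type V collagen, was at 57.9, 63.9, 51.2 and 68.6 CPM in wild type and 19.3, 21, 12.3 and 20.1 CPM in the knockout, and fell by 1.73 log2 (SE 0.23), while Col5a1 was at 0.14 ± 0.29. Col27a1, a cartilage-type fibrillar collagen, was at 122, 139.6, 55.2 and 122 CPM against 21.2, 28.5, 17.9 and 15 CPM, and fell by 2.41 log2 (SE 0.29). The third, Col20a1 (-1.61), kept its call only without wild-type library 2 or knockout library 3. The chains that make up scar tissue, Col1a1 (0.77 ± 0.57) and Col3a1 (0.30 ± 0.54), were not called. Of 45 other matrix genes 4 were higher and 1 lower, with a median of 0.30 log2 that was 0.62 without wild-type library 2. The rises numbered 7 in the fit of only the 8 control-diet libraries and 13 by voom with sample quality weights, and the fall was lost without knockout library 1 or 4 or wild-type library 1, 3 or 4. Of 22 markers of stellate cells and myofibroblasts 0 were called by edgeR, DESeq2 or voom, 2 by voom with sample quality weights (1 in each direction), and 2 had an unadjusted p under 0.05 in edgeR, both lower. Their summed level was 352 to 509 CPM in wild type and 348 to 450.3 CPM in the knockout.

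Of 19 tested markers of bile duct cells 14 were called higher and 0 lower, with a median of 1.80 log2. Without knockout library 1 or wild-type library 1, 3 or 4 the count was 9. Their summed level was 85.9 to 113 CPM in wild type and 337 to 633 CPM in the knockout, and Spp1 gave a large share of it. Spp1, the secreted phosphoprotein osteopontin, was at 62.6, 61.8, 37.8 and 42.8 CPM against 494, 257, 254 and 259 CPM, with knockout library 1 above the rest, and rose by 2.62 ± 0.42 log2 (SE, adjusted p = 0.00115). Epcam, an adhesion molecule of duct cells, was at 1.89, 2.72, 1.6 and 2.09 CPM against 11.3, 6.32, 6.22 and 5.31 CPM, and rose by 1.80 ± 0.42. The chloride channel Cftr, the secretin receptor Sctr and the claudin Cldn4 were under 1 CPM in every wild-type library and rose by 3.22, 3.88 and 2.97 log2. The keratins that define the cell type were not called, with Krt19 at 1.71 ± 0.56 (adjusted p = 0.061) and Krt7 at 1.34 ± 0.43 (0.0535), although neither gene's groups overlapped, and the duct regulator Sox9 was at 0.31 ± 0.29.

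Of 22 markers of sinusoidal endothelial cells 1 was called higher and 1 lower. Their summed level was 310.5 to 470.1 CPM in wild type and 364 to 441 CPM in the knockout. The rise was Stab2 (chromosome 10, 86841198 to 87008025, minus strand), a scavenger receptor that clears hyaluronan, at 15.6, 22.9, 18 and 16.2 CPM in wild type and 71.6, 61.3, 63.5 and 67.6 CPM in the knockout. The groups were far apart, and the difference was 1.86 ± 0.18 log2 (SE, adjusted p = 8.26e-06). Other receptors and lectins of the same cells were not called, with Stab1 at 0.15 ± 0.14, Clec4g at -0.10 ± 0.16 and Lyve1 at -0.33 ± 0.38. The fall was Vwf (-0.90), which lost its call without knockout library 1 or 4 or wild-type library 2. Which cells of the liver the reads of Stab2 and Vwf came from was not tested.

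Few immune cell markers were called by edgeR over all 16 libraries, and more by other fits. Of 14 Kupffer cell markers 0 were called by edgeR, DESeq2 or voom, 2 by voom with sample quality weights and 2 had an unadjusted p under 0.05 in edgeR, and the summed level was 344 to 507 CPM in wild type and 389 to 534 CPM in the knockout. Of 19 markers of monocytes and recruited macrophages 2 were called higher, with a median of 0.59 log2, and 10 were called higher by voom with sample quality weights. Their summed level was 105 to 178 CPM in wild type and 188 to 306 CPM in the knockout, with no overlap. One of the 2, Fabp5, a fatty acid carrier, was at 1.95 ± 0.46 log2 with overlapping groups, and the other, Cd68, at 0.98, was called in 2 of the 8 fits that left out a library. Of 12 lymphocyte markers only Cd4 was called, while 4 were called higher in the fit of only the 8 control-diet libraries and 3 by voom with sample quality weights. It was at 3.12, 2.13, 2.27 and 3.13 CPM against 0.63, 0.946, 0.486 and 0.796 CPM, and fell by 1.89 log2 (SE 0.37), while the summed lymphocyte level was 83.5 to 129 CPM against 115 to 188 CPM. Neutrophil markers summed to 2.52 to 5.54 CPM in wild type and 3.49 to 6.49 CPM in the knockout, with Ly6g at 0. Of the pancreatic acinar markers 5 of 15 were at 0 in all 8 libraries, and kidney tubule markers summed to 0.0531 to 0.307 CPM with 4 of 8 at 0. The part of these cells in the results above was not tested.

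**Figure D5:**
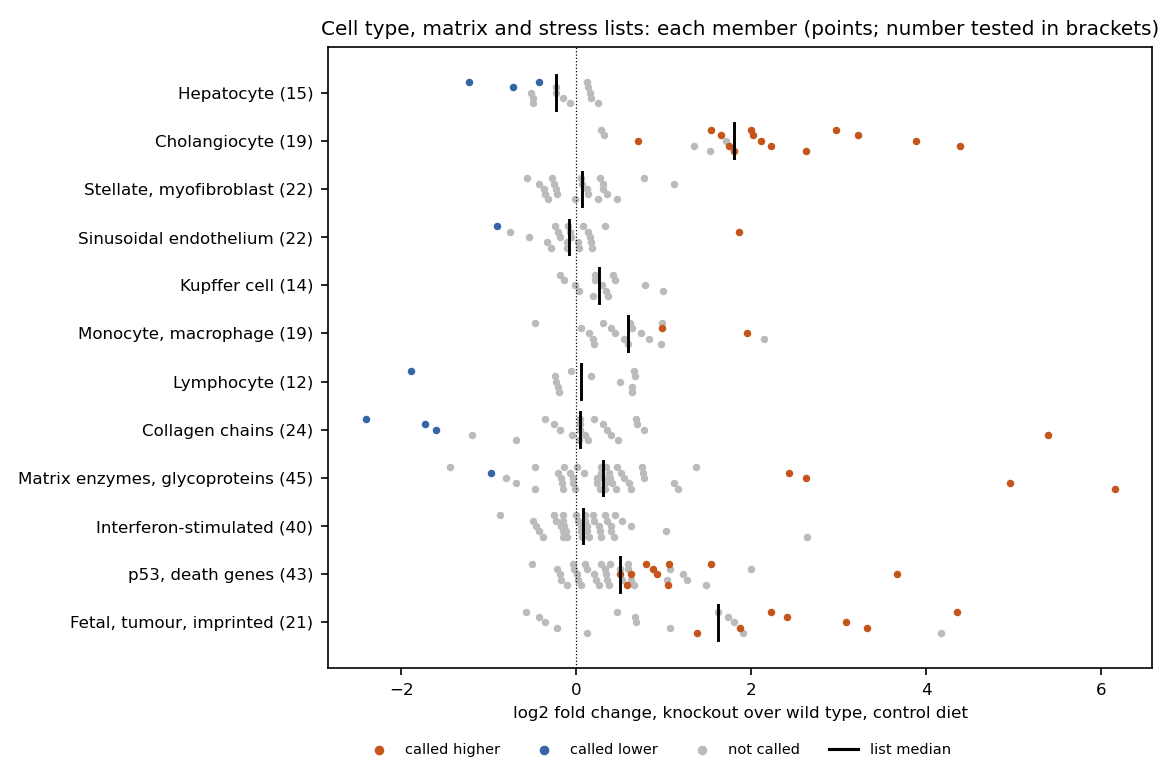
Difference between knockout and wild type (log2) of each tested member of the cell type, matrix, interferon, cell death and fetal lists, with each gene as a point, called rises in orange, called falls in blue, uncalled genes in grey and the list median as a black bar. The cholangiocyte list has its median at 1.80, while the stellate, sinusoidal endothelial and Kupffer lists have theirs at 0.06, -0.09 (0.03 when scaled by library totals alone) and 0.26.

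Genes of fetal liver and of imprinted loci rose where they were called. Of 21 tested 7 were higher and 0 lower, with a median of 1.62 log2. Meg3, a long noncoding RNA of an imprinted cluster, was at 4.95, 7.29, 3.13 and 2.96 CPM in wild type and 68.7, 56.1, 33.3 and 27.1 CPM in the knockout, and rose by 3.33 ± 0.66 log2 (SE, adjusted p = 0.00502). Peg3, a paternally expressed zinc finger gene, was at 8.18, 10.6, 11.9 and 9.98 CPM against 29.8, 26.7, 62.6 and 30.1 CPM, and rose by 1.87 ± 0.28. Knockout library 3 was highest for Peg3, and the groups of neither gene overlapped. Bex2 rose by 4.36 ± 0.72 from under 1 CPM in every wild-type library, and Cd24a, a surface protein of immature and duct cells, by 2.23 ± 0.43. H19, the imprinted noncoding RNA of fetal liver, was at 0.389, 0.106, 0.184 and 0.116 CPM against 6.18, 2.36, 2.59 and 3.72 CPM. Its groups did not overlap either, but the difference of 4.17 ± 2.03 log2 was not called (adjusted p = 0.214).

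Of 43 p53 target, growth arrest and cell death genes 10 were called higher and 0 lower, with a median of 0.49 log2. The count was 4 without knockout library 3, 5 without knockout library 4 or wild-type library 2, and 6 without wild-type library 1 or 4. It was 17 in the fit of only the 8 control-diet libraries and 16 by voom with sample quality weights. Bax, which opens the mitochondrial membrane in apoptosis, was at 16.1, 18.1, 15.1 and 17.7 CPM in wild type and 29.9, 25.5, 33.4 and 27.2 CPM in the knockout, and rose by 0.79 ± 0.14 log2. Mlkl, the executor of necroptosis, rose by 0.88 ± 0.19 and Plk2 by 1.06 ± 0.21, while the cell cycle inhibitor Cdkn1a was at 1.22 ± 0.52 (adjusted p = 0.151) with overlapping groups. Of 40 cell cycle genes 4 were higher and 1 lower, and the proliferation marker Mki67 was at 0.83 ± 0.39 (adjusted p = 0.183). The cell cycle rises numbered 2 without knockout library 3, and the fall was lost without knockout library 1, 3 or 4 or wild-type library 4. Of 44 cytoskeleton, annexin and S100 genes 7 were higher and 2 lower. The rises numbered 4 without knockout library 3 or 4 or wild-type library 1, 3 or 4, and the falls 1 without knockout library 1, 2 or 4 or wild-type library 1 or 2. Tuba8, an alpha-tubulin, was at 0.668, 1.33, 0.983 and 1.91 CPM against 8.25, 8.69, 11.8 and 9.08 CPM, and rose by 2.94 ± 0.28, and Anxa5 rose by 1.23 ± 0.13.

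Genes that respond to injury, stress and metals held called members in some lists. Of 40 interferon-stimulated genes 0 were called by edgeR or voom, 1 by DESeq2 and 3 by voom with sample quality weights, and 4 had an unadjusted p under 0.05 in edgeR, all higher. Of 26 acute-phase genes 3 were higher and 0 lower, with Orm3 at 2.94 ± 0.48 log2. Saa1 was at 64.4, 221, 505 and 33.5 CPM in wild type and 45.1, 73.4, 729 and 160 CPM in the knockout, so libraries 3 of both genotypes were the highest and the groups overlapped. The metallothionein Mt1 had the same shape, at 42.3, 83.9, 374 and 54.4 CPM against 79.5, 68.1, 718 and 83.7 CPM. The zinc importer Slc39a4 was at 30.4, 35.9, 34.8 and 28.9 CPM against 63, 61.5, 79.3 and 73.7 CPM, and rose by 1.09 ± 0.16. Of 30 genes of metallothioneins and of zinc, copper and iron handling 6 were higher and 0 lower, with a median of 0.17 log2, and 3 were higher without wild-type library 1 or any 1 of the knockout libraries. Of 24 chemokine and cytokine genes 3 were higher and 0 lower, and 1 was higher without knockout library 3 or 4 or wild-type library 1 or 4. Of 29 glucocorticoid targets and immediate early genes 2 were higher and 0 lower, with a median of 0.61 log2. Those rises numbered 0 without knockout library 3 or 4 or wild-type library 1 or 3, 1 without wild-type library 4 and 5 without wild-type library 2. Of 38 chaperones and heat shock genes 4 were called lower and 0 higher. Over the fits that left out a library 0 to 3 were lower. With only the 8 control-diet libraries 8 were lower and 1 higher, and by voom with sample quality weights 9 and 1. Of 28 clock genes 2 were called higher and 1 lower, and 1 was higher in each fit that left out a library other than knockout library 3.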

How the data were processed

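Liver RNA was extracted with Trizol, polyA-selected, made into libraries with a stranded NEBNext kit and read as single 75 bp reads, per the labels' protocols. Per the submitters' processing notes, Trimmomatic 0.36, HISAT2 2.1.0, HTSeq and the build GRCm38 were used. The authors deposited raw read counts per gene, and the sources used here do not give its annotation, strand or multiple-mapping options, so values of near-identical families (Rpl, Rps, Cyp2c, Ugt2b, Slc22a, Mup, Ces, Gst) and of overlapping genes are uncertain. A deposited table of the authors' own comparisons was not used here.

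Of 55487 entries 7436 had no symbol (0.227 to 0.479% of counts) and entered neither library sizes nor tests, 172 repeated a symbol, and 24 symbols with the form of a date were not named. In R 4.3.3 with edgeR 4.0.16, filterByExpr kept 14346 genes, TMM factors scaled the libraries, and 1 robust quasi-likelihood model with a mean per group was fitted to all 16 libraries (biological coefficient of variation 0.205, with 12 residual degrees of freedom). P-values were adjusted by Benjamini-Hochberg over all genes tested and genes called under 0.05. Each SE given is the absolute log2 difference divided by the square root of the test's F statistic. It thus rests on the spread estimated from all 16 libraries and is not computed from the 8 libraries compared. CPM are per TMM-scaled library, not per length, so they do not rank genes by molecules. The reads carry no molecular identifiers, so they are not independent molecules. The procedure was run on simulated counts in which equal numbers of genes were raised and lowered. That simulation held no shift in library composition such as that of Alb, so it does not bear on the choice of scaling.

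The 65 lists (1937 genes, 1926 matched by symbol, 4 by synonym, 7 not) and the naming rule were chosen with earlier results of these data known. The rule took Tsc1 and the 12 largest called rises and falls with a mean of at least 2 CPM and no overlap. These rises and falls left out clone, predicted and repeated symbols. It also took the 10 smallest p-values and the 8 largest called gains and losses in CPM. From each list it took up to 2 called members and the most abundant uncalled member. Other genes were named after their values were seen. Some genes taken by the rule are not reported here. All 190 genes so chosen were placed once in the GENCODE M21 annotation of GRCm38, where exons of 13 overlap another gene on the same strand and of 48 on the other. Alternatives were size factors, library totals alone, DESeq2 1.42.0, voom of limma 3.58.1, other filters, only the 8 libraries, a replicate block, leaving out each library and, chosen after seeing the data, voom with sample quality weights.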

Additional observations from a re-analysis of the deposited data

Results flagged for a closer look

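In each group of 4 libraries the highest or lowest library was set against the other 3, and it counts as far from them when its gap to the nearest, as a share of the group's range, is over Dixon's 95% critical value for 4 samples. Chance alone gives this in about 1 in 20 groups, and 21 of 380 groups screened met it, which is near that share.

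Wild-type library 1 was the highest of its group for Gpx3 at 12.8 CPM (others 3.77 to 5.04), Ttc39a at 1.17 (0.905 to 0.928), Rragc at 50.8 (46.8 to 47.1), Mfsd1, a lysosomal carrier, at 112 (99.8 to 101) and Asgr1 at 816 (602 to 628). Wild-type library 2 was the highest for P4ha2 at 8.04 CPM (others 5.4 to 5.74), the endothelial Fc receptor Fcgr2b at 45.1 (29.4 to 30.5), the iron exporter Slc40a1 at 202 (120.2 to 131) and Cd68 at 9 (4 to 4.51). Wild-type library 3 was the highest for the chaperone P4hb at 1548 CPM (others 1343 to 1366), and wild-type library 4 the lowest for the clock gene Bhlhe41 at 3.66 (5.51 to 5.75).

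Knockout library 1 was the highest for Spp1 at 494 CPM (others 254 to 259) and Dtnbp1 at 58.5 (46 to 47.5), and the lowest for C4bp at 378 (451 to 462). Knockout library 2 was the highest for Mgst1 at 2887 CPM (others 2432 to 2478). Knockout library 3 was the highest for Orm3 at 10.6 CPM (others 3.45 to 4.18), Peg3 at 62.6 (26.7 to 30.1) and the immediate early gene Fos at 38.8 (3.09 to 7.75), and the lowest for Gabarapl1 at 584 (660.4 to 668). Knockout library 4 was the lowest for Rack1 at 204 CPM (others 220.3 to 223) and Cxcl12 at 359.7 (436 to 442).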

How the results depend on the processing

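The 1766 calls, 1061 higher and 705 lower, became 3603, 1960 and 1643 with voom and sample quality weights, an alternative chosen after seeing the data. DESeq2 gave 2154, voom 1682, DESeq2's size factors 1760, no filter 1369, a stricter filter 1527 and only the 8 libraries 2480. Scaling by library totals alone gave 1289 higher and 251 lower, and Tsc1 then stood at -0.40 log2 (adjusted p = 0.112). Leaving out 1 library gave 1091 to 1561 calls, 720 to 948 higher and 371 to 666 lower, and Tsc1 at -0.65 to -0.46. The calls fell to 1131, 1141 and 1091 without knockout library 1, 3 or 4 and to 1138 and 1135 without wild-type library 1 or 4. The falls were then 398, 400, 371, 381 and 412, and a fit without a library has fewer samples. Of 127 named genes called beside Tsc1, 27 lost their call under at least 1 alternative, 24 of them without knockout library 4, and 0 changed sign. The replicate numbers were not taken to pair the libraries. Same-numbered libraries had correlated deviations of 0.0953, 0.0556, 0.414 and 0.12, and 4 of 8 libraries correlated best with their own number. These were libraries 3 and 4 of both genotypes. Library 1 of each genotype correlated best with library 2 of the other genotype, and library 2 with library 1. The second principal component also set libraries 1 and 2 apart from 3 and 4 in both genotypes. Such a shared structure was not modelled in the main fit. A replicate block gave 1109 higher and 669 lower, 1778 in all, and Tsc1 at -0.52. It kept 1597 of the 1766 calls, and 7 of the 127 named genes lost theirs. Depth limits genes under about 1 CPM, where a library holds few reads.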
